A study of Mus musculus with 9 samples.

Results

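The genes described here encode chloride channels and exchangers of the CLC family (Clcn2, Clcn3, Clcn5, Clcn6 and Clcn7) and subunits of the volume-regulated anion channel (Lrrc8a, Lrrc8b, Lrrc8c and Lrrc8d), 9 of the 14351 genes measured. They were chosen by name, as other routes for chloride in mice that lack Clic1, a chloride intracellular channel protein that is not a member of either family, and all 9 were in the table. RNA sequencing was performed on hypothalamus from 4 WT mice (replicates 1, 3, 9 and 11) and from 5 mice lacking Clic1 (KO replicates 2, 4, 6, 8 and 10), with 1 library per mouse. Per the labels the mice were male and of strain C57b/6J, whereas the study's methods give a CD-1 background, a deletion in the whole body and WT littermates. Both groups were fed normal chow and received no agent, and the age of these mice is not given in the sources used here. The labels also name perigonadal fat as starting material, although the tissue is given as hypothalamus. All 8 hypothalamic neuron markers were measured, and none of the 5 fat cell markers was in the table.

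CLC proteins are either chloride channels of the plasma membrane, such as that of Clcn2, or exchangers of chloride for protons in endosomes and lysosomes, where they work beside the vacuolar proton pump. Loss of Clcn2, Clcn3, Clcn6 or Clcn7 in mice leads to disease of white matter, neurons or lysosomes. The volume-regulated channel opens when a cell swells and releases chloride and small organic molecules. Its essential subunit, the product of Lrrc8a, assembles with the products of Lrrc8b, Lrrc8c, Lrrc8d or Lrrc8e, and the partner determines which molecules pass.

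Replicate 10 stood apart. Its title and treatment labels call it WT and its description label names it as a KO library, and here it was placed with the KO mice. It had an estimated depth of 20.8 M reads, and the others 5.47 to 10.98 M. Of 12072 genes averaging 5 CPM or more, 63.4% had their highest or lowest value of the 9 libraries in replicate 10, against 10.7% to 22.3% in each other library. Summed markers of hypothalamic neurons were 775 CPM in this library. They were higher in each KO library (583 to 775 CPM) than in each WT library (514 to 560 CPM), and 1 of the 8, Avp, passed the threshold of the test below (log2 fold change 0.90, SE 0.10, adjusted p = 0.0027 in limma). The sum adds CPM, so genes of higher CPM count for more in it. No other gene of the 8 had an unadjusted p under 0.05 in limma. Among them, Agrp had a log2 fold change of -0.34 (SE 0.48) and Nkx2-1 of 0.02 (SE 0.10). The part of this difference in the sum in the channel results was not tested. In replicate 10, summed markers of oligodendrocytes, microglia and ependyma were likewise the highest or lowest of the 9. Those of neurons, astrocytes and endothelium were not. Of 4 choroid plexus markers, only 1 was measured. It was lowest in replicate 10, at 10.4 CPM, beside 10.6 to 20.2 CPM in the WT libraries. Fold changes of single genes that replicate 10 moves are therefore also given without it.

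Clic1 was lower in every KO library than in any WT library. The KO values ranged from 0.733 to 1.93 CPM, with 1.43 CPM in replicate 10, and the WT values from 3.58 to 5.52 CPM. In limma the log2 fold change, KO minus WT, was -1.80 (SE 0.27, adjusted p = 0.0153). With WT replicate 1, 3 or 9 left out, the adjusted p rose to 0.0893, 0.0826 and 0.0702. All values are the authors' normalized CPM (reads relative to library size, scaled between libraries), and fold changes are on the log2(CPM + 0.1) scale.

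None of the 9 channel genes passed an adjusted p of 0.05 in KO against WT mice. In limma, 41 of 14351 genes passed (0.286%), 20 higher and 21 lower in KO mice. None of the 9 had an unadjusted p under 0.05 either, against 6.5% of all genes. For none of them did the KO and WT libraries separate without overlap, which 3.41% of all genes did. Of the 9 log2 fold changes, 3 were above 0 and 6 below, with a median of -0.06 and a median size of 0.10, beside 0.0009 and 0.093 over all genes. Without KO replicate 10, 4 were above 0 and 5 below, with a median of -0.0080 and a median size of 0.047. Their 95% intervals ran from -0.42 at the lowest (Lrrc8c) to 0.39 at the highest (Clcn2). A limma-voom fit to estimated reads called 36 genes in all and none of these 9, with a lowest adjusted p of 0.693. In RNA of a whole tissue, fewer cells of a type and less RNA per cell cannot be told apart.

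**Figure D1:**
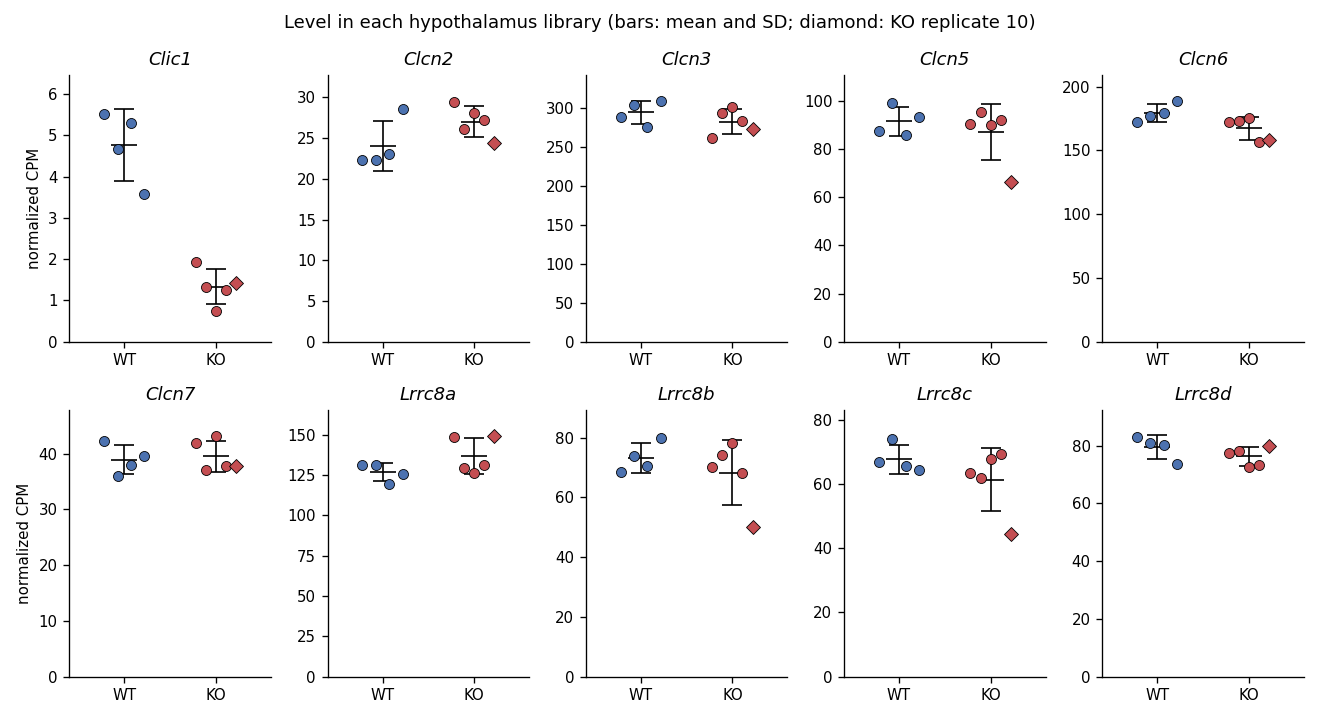
Normalized CPM (vertical axes, from 0) of Clic1 and the 9 channel genes in each hypothalamus library, with WT mice in blue and Clic1 KO mice in red. Each point is 1 mouse, the diamond is KO replicate 10, and the bars are the mean and SD. Clic1 separates the groups, with KO points at 0.733 to 1.93 CPM and WT points at 3.58 to 5.52 CPM, whereas the groups overlap for each channel gene.

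Clcn2 (ENSMUSG00000022843), the plasma membrane channel among the CLC genes here, had the smallest limma p of the 9. Clcn6 had the smallest in the exact permutation test. Clcn2 lies on the minus strand of chromosome 16 at 20702964 to 20717746 (GRCm38). In KO replicates 2, 4, 6, 8 and 10 it measured 29.4, 26.1, 28.0, 27.2 and 24.3 CPM, against 22.2, 22.3, 23.0 and 28.5 CPM in WT replicates 1, 3, 9 and 11. Each of the 5 KO values exceeded 3 of the 4 WT values, but WT replicate 11 was above 4 of the 5 KO values. The KO mean was 27.0 ± 1.91 CPM (SD, n = 5) and the WT mean 24.0 ± 3.02 CPM (SD, n = 4). This gave a log2 fold change of 0.17 (SE 0.10, 95% interval -0.04 to 0.39, adjusted p = 0.824 in limma), which spans a change of -2.89% to 31.1%, and the exact permutation test gave p = 0.111. Left out in turn, single libraries moved the log2 fold change between 0.14 and 0.26, the highest without WT replicate 11. Without KO replicate 10 it was 0.21 (95% interval 0.01 to 0.41, unadjusted p = 0.0385 and adjusted p = 0.437 in limma). Exons of Clcn2 overlap those of Fam131a and Polr2h, both on the opposite strand. The largest overlap of a single pair of exons is 85 bases for Fam131a and 82 bases for Polr2h. Whether the counting used strand is not given in the sources used here, so reads from these stretches cannot be assigned with certainty.

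The 3 genes whose log2(CPM + 0.1) followed that of Clcn2 most closely over the 9 libraries, among 12071 genes, were Cntn2, Taf3 and Speg. Their Pearson correlations with Clcn2 were 0.936, 0.931 and 0.902, and 0.936, 0.960 and 0.901 without KO replicate 10. Cntn2 encodes a contactin of myelinated axons. These are the highest values out of many genes over few libraries, and are given as a description.

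Clcn3 and Clcn5 encode exchangers of endosomes, and Clcn3 also acts on vesicles of neurons. Clcn3 (ENSMUSG00000004319, chromosome 8, 60910389 to 60983300, minus strand) measured 262, 294, 302, 283 and 273 CPM in the KO libraries, in the order used for Clcn2, and 289, 304, 276 and 308 CPM in the WT libraries. The groups overlapped over most of their range, with a KO mean of 283 ± 16.05 CPM (SD, n = 5) and a WT mean of 294 ± 14.7 CPM (SD, n = 4). Clcn3 had a log2 fold change of -0.06 (SE 0.06, 95% interval -0.20 to 0.08, adjusted p = 0.880 in limma), or -12.7% to 5.45%.

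Clcn5 (ENSMUSG00000004317, chromosome X, 7153810 to 7319358, minus strand) is the exchanger of early endosomes that proximal tubule cells of the kidney need for protein uptake. It was at 90.4, 95.6, 90.1, 92.3 and 66.5 CPM in KO and 87.7, 99.2, 85.9 and 93.4 CPM in WT libraries. KO replicate 10 was the lowest of the 9 libraries, and the other 4 KO libraries lay inside the WT range. The log2 fold change was -0.08 (SE 0.10, 95% interval -0.31 to 0.14, adjusted p = 0.900 in limma), and 0.01 (95% interval -0.11 to 0.13, adjusted p = 0.975) without replicate 10.

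Clcn6 and Clcn7 encode the exchangers of late endosomes and lysosomes. The product of Clcn6 is found mainly in neurons, and that of Clcn7 supplies lysosomes and the acid-secreting border of osteoclasts. The RefSeq promoter windows (250 bases before to 50 after the start, GRCm38.p6) of these genes are the only ones of the 9 that hold the core of the CLEAR element, TCACGTGA, a site found near many lysosomal genes and read by the factor TFEB. The 80 bases around each start are shown with that core in capitals, 60 before and 20 after.
Clcn6, chr4:148038794-148038873, minus strand: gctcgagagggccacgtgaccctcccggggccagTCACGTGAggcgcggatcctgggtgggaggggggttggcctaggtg
Clcn7, chr17:25133331-25133410, plus strand: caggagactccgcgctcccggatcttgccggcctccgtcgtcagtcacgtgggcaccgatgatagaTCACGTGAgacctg
The core reads the same on both strands and contains the E-box CACGTG. It starts 26 bases before the Clcn6 start and at base 7 after the Clcn7 start. Of 27025 genes with such a window, some with several, 1.12% hold it, as do 3 of 13 proton pump genes (Atp6v0d1, Atp6v0e and Atp6v1a). The GC box GGGCGG, searched on both strands, was in a window of 8 of the 9 genes, all but Clcn7, and in one of 38.2% of all genes with a window. A match of letters is a description only.

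Clcn6 (ENSMUSG00000029016, chromosome 4, 148004259 to 148038821, minus strand) measured 172, 173, 175, 157 and 158 CPM in KO and 172, 177, 179 and 189 CPM in WT libraries. KO replicates 8 and 10 were the lowest of all, and the other 3 KO libraries sat around the lower end of the WT range. The KO mean was 167 ± 8.84 CPM (SD, n = 5) and the WT mean 179 ± 6.82 CPM (SD, n = 4), for a log2 fold change of -0.10 (SE 0.06, 95% interval -0.23 to 0.03, adjusted p = 0.828 in limma). The unadjusted p in limma was 0.120. Without KO replicate 10 the log2 fold change was -0.08 (95% interval -0.19 to 0.02, unadjusted p = 0.121 in limma). With that library as WT it was -0.05. The exact permutation test, run on each of the 9 genes, was under 0.05 for this gene alone, at p = 0.0476, unadjusted for the 9 tests. It was run only with replicate 10 among the KO libraries. With groups of 5 and 4, the exact permutation test can go no lower than p = 0.0159.

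Clcn7 (ENSMUSG00000036636) lies on the plus strand of chromosome 17 at 25133391 to 25162104, 9.89 Mb from Clic1. Its CPM was 41.9, 37.2, 43.2, 37.8 and 37.8 in KO and 42.3, 36.1, 38.0 and 39.5 in WT libraries, so both groups covered nearly the same range. With a log2 fold change of 0.02 (SE 0.08, 95% interval -0.15 to 0.20, adjusted p = 0.972 in limma), its sign turned in 2 of 9 fits made with a library removed. The 2 genes with the core above thus had log2 fold changes of -0.10 and 0.02, neither past the threshold.

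Lrrc8a (ENSMUSG00000007476, chromosome 2, 30237715 to 30263790, plus strand), which encodes the subunit without which no volume-regulated channel forms, was at 148, 129, 127, 131 and 149 CPM in KO and 131, 131, 119 and 125.6 CPM in WT libraries. KO replicates 2 and 10 were above all WT libraries, and the other 3 KO libraries were within or next to the WT range. Means of 137 ± 10.98 CPM (SD, n = 5) and 127 ± 5.54 CPM (SD, n = 4) gave a log2 fold change of 0.11 (SE 0.07, 95% interval -0.05 to 0.26, adjusted p = 0.836 in limma). It was 0.08 (95% interval -0.05 to 0.20) without replicate 10.

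The value of Lrrc8a is uncertain, because a second annotated gene, Gm28035, overlaps its exons on the same strand. The largest overlap of a single pair of exons is 2165 bases for Gm28035. For the antisense gene 1700084E18Rik it is 91 bases. The longest transcript of Lrrc8a matches a transcript of Gm28035 over 2855 bases at 100% identity. Reads from the stretch shared with Gm28035 had to be divided between these genes. Gm28035 was at 2.62 to 9.14 CPM in 8 libraries and 44.6 CPM in KO replicate 10. Summed over both genes, KO libraries averaged 152 ± 25.3 CPM (SD, n = 5) and WT libraries 133 ± 5.81 CPM (SD, n = 4). The sum was 194 CPM in replicate 10, 132 to 157 CPM in the other KO libraries and 125 to 139 CPM in the WT libraries. The log2 fold change of the sum was 0.17 (SE 0.10, adjusted p = 0.828 in limma), a comparison added after the values were seen. This sum was not fitted without replicate 10.

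Lrrc8b, Lrrc8c and Lrrc8d follow each other on chromosome 5 (plus strand, 105415775 to 105832436), with gaps of 29.3 kb and 86.95 kb. Lrrc8b (ENSMUSG00000070639) measured 70.3, 74.3, 78.0, 68.2 and 49.9 CPM in KO and 68.6, 73.8, 70.4 and 79.8 CPM in WT libraries. Lrrc8c (ENSMUSG00000054720) measured 63.2, 61.9, 67.8, 69.3 and 44.4 CPM in KO and 66.7, 74.1, 65.5 and 64.2 CPM in WT libraries. For both, KO replicate 10 was the lowest of the 9 libraries and the other 4 KO libraries overlapped the WT libraries. The log2 fold change of Lrrc8b was -0.12 (SE 0.12, 95% interval -0.37 to 0.14, adjusted p = 0.880 in limma), and -0.01 (95% interval -0.14 to 0.13) without replicate 10. That of Lrrc8c was -0.16 (SE 0.12, 95% interval -0.42 to 0.10, adjusted p = 0.862 in limma), and -0.04 (95% interval -0.18 to 0.09) without replicate 10.

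Lrrc8d (ENSMUSG00000046079), whose product lets taurine and other uncharged or larger molecules through the channel, was at 77.7, 78.2, 72.5, 73.5 and 79.97 CPM in KO and 83.1, 80.99, 80.4 and 73.7 CPM in WT libraries. Each KO library was below 3 of the 4 WT libraries, and WT replicate 11 lay among the lowest KO values. The log2 fold change was -0.06 (SE 0.06, 95% interval -0.20 to 0.08, adjusted p = 0.888 in limma). Unlike its neighbours Lrrc8b and Lrrc8c, Lrrc8d was within the range of the other libraries in replicate 10. An antisense gene, Lrrc8dos, overlaps exons of Lrrc8d, by 218 bases at the largest single pair of exons, and was not in the table.

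**Figure D2:**
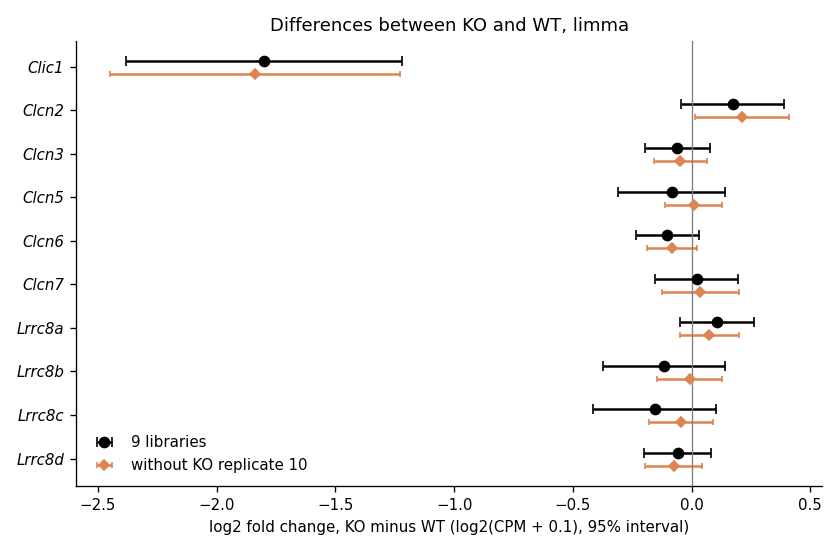
Log2 fold change, KO minus WT, on the log2(CPM + 0.1) scale (horizontal axis) for Clic1 and the 9 channel genes, with 95% intervals from limma. Black circles use 9 libraries and orange diamonds leave out KO replicate 10. With 9 libraries each channel gene's interval includes 0, the lowest bound being -0.42 (Lrrc8c) and the highest 0.39 (Clcn2), and without replicate 10 that of Clcn2 (0.01 to 0.41) does not.

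In KO replicate 10, 4 of the 9 genes were outside the range of the other 8 libraries, Clcn5, Lrrc8b and Lrrc8c below it and Lrrc8a above it. Relative to the other KO libraries the differences on the log2 scale were -0.47, -0.54 and -0.56 for the first 3 and 0.16 for Lrrc8a. These 4 genes are 44.4% of the 9, below the 63.4% of genes of at least 5 CPM that were at an extreme in this library, and the other libraries had 0 to 3 of the 9 genes at an extreme of this kind. The part of depth and of the marker differences given above in these values was not tested.

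Levels can be compared between genes only per length. As mean CPM per kb of the longest annotated transcript over the 9 libraries, the order was Clcn3 (35.1), Clcn6 (33.2), Lrrc8a (30.8), Lrrc8d (13.6), Clcn5 (10.6), Lrrc8b (10.5), Clcn7 (9.28), Lrrc8c (9.19) and Clcn2 (6.51). The first 3 overlapped in their ranges, with Clcn3 above Clcn6 in 7 of 9 libraries and Clcn6 above Lrrc8a in 6 of 9. A gap without overlap separated Lrrc8a from Lrrc8d, at 27.8 to 34.7 against 12.6 to 14.5 CPM per kb, and Lrrc8d was also above Clcn5 in each of the 9 libraries. Clcn5 and Lrrc8b, and Clcn7 and Lrrc8c, did not differ beyond their spread, with the higher gene above the lower in 6 and 5 of 9 libraries. Clcn2 was below Lrrc8c in each library, although the ranges overlapped. The order depends on which transcript is used as the length. With the median annotated transcript in place of the longest, Lrrc8c moved from place 8 to place 1, as its median transcript is 650.5 nt against 6976 nt for the longest. The gap between Lrrc8a and Lrrc8d also turned round, with Lrrc8d (50.4 to 57.7 CPM per kb, median transcript 1440 nt) above Lrrc8a (28.1 to 35.1 CPM per kb, median transcript 4247.5 nt) in 9 of 9 libraries.

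**Figure D3:**
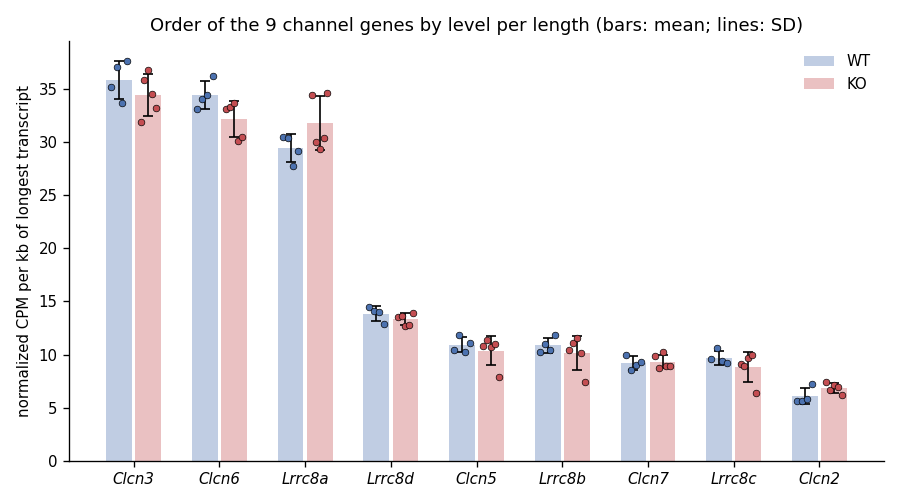
Level of the 9 channel genes in CPM per kb of the longest transcript (vertical axis, from 0), ordered by their mean. Bars are the group means, lines the SD and points single mice, with WT in blue and Clic1 KO in red. On this length Clcn3, Clcn6 and Lrrc8a form a high group at about 27.8 to 37.6 CPM per kb, and the other 6 genes lie at or below 14.5.

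The summed CPM per kb of the 9 genes averaged 157 ± 5.26 over KO mice (SD, n = 5) and 161 ± 4.45 over WT mice (SD, n = 4), for a log2 ratio of -0.03. In the same order and unit, the CLC genes summed to 93.2 ± 4.50 and 96.6 ± 3.72, and the LRRC8 genes to 64.1 ± 2.02 and 63.9 ± 1.96. The differences of these sums were smaller than the SDs within the groups. Replicate 10 had the lowest sum of the 9 libraries for all 9 genes (149) and for the CLC genes (86.8). The ratio was not computed without replicate 10. Lrrc8a made up 51.1%, 47.2%, 46.4%, 48.1% and 55.6% of the LRRC8 sum in KO and 47.1%, 46.0%, 45.1% and 46.3% in WT libraries. The KO shares reached higher, most of all in replicates 2 and 10, and the other 3 KO shares were between 46.4% and 48.1%. These shares depend on the length used. With median transcript lengths, added after the values were seen, Lrrc8a held 15.2% to 21.1% in KO libraries, the highest in replicate 10, and 14.4% to 15.5% in WT libraries, while Lrrc8c held 41.1% to 53.6% and 50.9% to 53.7%. Of the CLC sum, Clcn2 made up 7.35% ± 0.428 over KO mice (SD, n = 5) and 6.29% ± 0.581 over WT mice (SD, n = 4). The groups overlapped in this share, with WT replicate 11 at 7.11% and the lowest KO library at 6.90%. With median lengths the Clcn2 shares were 5.11% to 6.00% and 4.28% to 5.30%, which overlapped too.

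**Figure D4:**
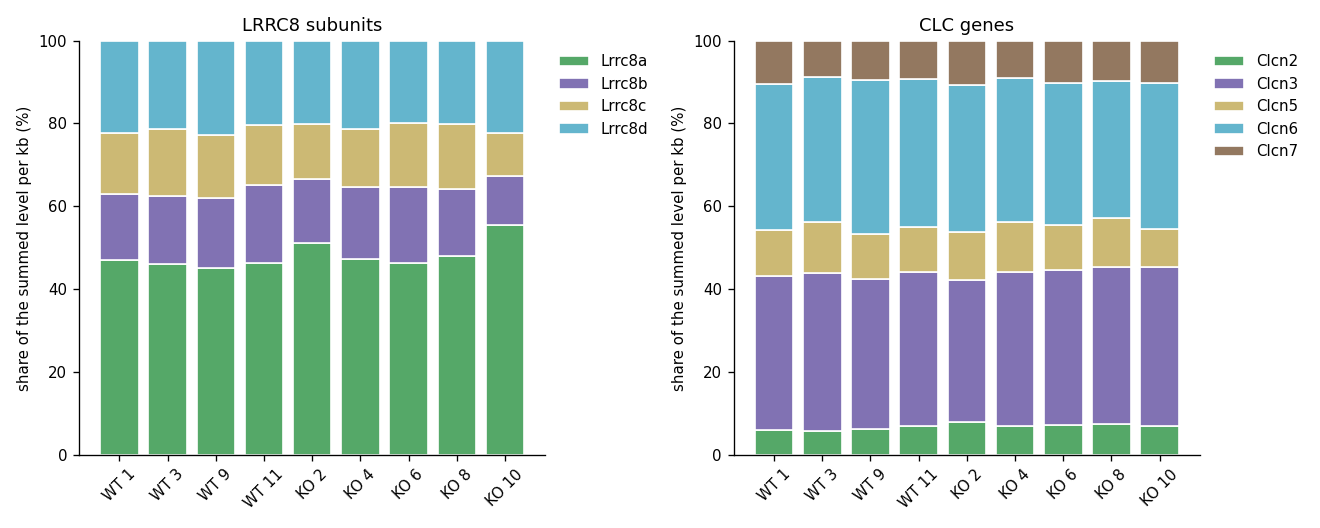
Share of each LRRC8 gene (left) and CLC gene (right) in the summed CPM per kb of its family (vertical axes, %), with 1 stacked bar per library. With longest transcripts as lengths, as drawn, Lrrc8a holds 45.1% to 47.1% of the LRRC8 sum in WT libraries and 46.4% to 55.6% in KO libraries, the highest in KO replicate 10, whereas with median transcripts (not drawn) it holds 14.4% to 21.1%.

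Of 7 genes for subunits and partners of these channels, 6 were measured, and Bsnd was not in the table. None of the 6 passed the threshold in limma, against 0.286% of all genes. The median log2 fold change of the 6 was -0.09, and -0.07 without KO replicate 10. Ostm1, the subunit that Clcn7 protein needs in lysosomes, averaged 52.0 ± 3.61 CPM over KO mice (SD, n = 5) and 54.8 ± 3.35 CPM over WT mice (SD, n = 4), with an adjusted p of 0.880 in limma. Tmem9 and Tmem9b, which encode proteins that bind endosomal CLC exchangers, had log2 fold changes of -0.11 (SE 0.12) and -0.20 (SE 0.10), with adjusted p of 0.884 and 0.786 in limma. Without KO replicate 10, Tmem9 was at -0.0044 (SE 0.07) and Tmem9b at -0.24 (SE 0.08, unadjusted p = 0.0107, adjusted p = 0.283 in limma). Hepacam and Mlc1, which encode proteins of astrocyte end feet that work with Clcn2 protein, had log2 fold changes of -0.06 (SE 0.07) and 0.07 (SE 0.09), and of -0.02 (SE 0.05) and 0.04 (SE 0.08) without replicate 10. Gpr37l1, an astrocyte receptor found in the same complex, was the only partner with an unadjusted p under 0.05 over the 9 libraries. Among all genes, 6.5% had such a p. KO values of Gpr37l1 ran from 97.1 to 148 CPM and WT values from 142 to 203 CPM. Its log2 fold change was -0.33 (SE 0.13, unadjusted p = 0.0258, adjusted p = 0.702 in limma). It was -0.23 (SE 0.08, unadjusted p = 0.0171, adjusted p = 0.332 in limma) without replicate 10, and -0.07 (unadjusted p = 0.654 in limma) with that library as WT. Summed astrocyte markers spanned 3828 to 4084 CPM in the KO group and 3501 to 3953 CPM in the WT group. In the same order, those of oligodendrocytes spanned 3206 to 3723 and 3507 to 4315 CPM. Those of microglia spanned 122 to 145 and 136 to 165 CPM. The part of these sums in the Gpr37l1 difference was not tested.

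Among 29 other chloride and anion channels, 23 were measured and none passed the threshold, against 0.286% of all genes. The median log2 fold change of the 23 was -0.04, and -0.01 without KO replicate 10. Over the 9 libraries, 2 of the 23 had an unadjusted p under 0.05, against 6.5% of all genes. These were Ano7, with KO values of 0.297 to 1.93 CPM and WT values of 1.5999 to 2.20 CPM (log2 fold change -1.06, SE 0.41, adjusted p = 0.693 in limma), and Glrb, the beta subunit of glycine receptors (log2 fold change -0.15, SE 0.06, adjusted p = 0.720 in limma). Without KO replicate 10 these were -0.76 (SE 0.34) and -0.13 (SE 0.05). Clcn4, the endosomal exchanger closest to those of Clcn3 and Clcn5, averaged 136 ± 2.86 CPM over KO mice (SD, n = 5) and 129.9 ± 6.20 CPM over WT mice (SD, n = 4), for a log2 fold change of 0.07 (SE 0.06, adjusted p = 0.862 in limma). Lrrc8e, the remaining volume-regulated channel subunit, was not in the table, which the authors limited to genes with at least 1 CPM in at least 5 samples.

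All 18 genes listed for the vacuolar proton pump, which acidifies the organelles in which Clcn3 to Clcn7 proteins work, were measured. None passed the threshold, against 0.286% of all genes. Of the 18 log2 fold changes, 7 were above 0 and 11 below. Their median was -0.10, and -0.08 without KO replicate 10. Of the 18, 1 had an unadjusted p under 0.05 over the 9 libraries, against 6.5% of all genes. This was Atp6v1b2, a subunit of the part that splits ATP. It was at 308, 337, 358, 292 and 391 CPM in KO and 384, 380, 384 and 394 CPM in WT libraries. The 4 KO libraries other than replicate 10 were below all WT libraries, and replicate 10 was inside the WT range. Its log2 fold change was -0.20 (SE 0.08, adjusted p = 0.715 in limma). Without replicate 10 it was -0.26 (SE 0.06, unadjusted p = 0.000446, adjusted p = 0.0642 in limma). With libraries weighted by their estimated spread it was -0.25 (adjusted p = 0.0397 in limma). Atp6v1b2 was the only gene of these 3 lists past the threshold in any of the alternatives tried. The weighted fit called 135 genes in all, against 41 without weights. The groups did not overlap for 2 of the 18 genes (11.1%, against 3.41% of all genes), a pair chosen after the values were seen. Atp6v0c ran from 282 to 479.8 CPM over KO libraries and from 492 to 563 CPM over WT libraries (adjusted p = 0.790 in limma), and Atp6ap1 from 156 to 249.3 and from 253 to 275 CPM (adjusted p = 0.825).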

How the data were processed

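RNA of the hypothalamus was sequenced from 5 Clic1 KO and 4 WT mice. The authors trimmed reads with Trimmomatic 0.38, aligned them to GRCm38.p6 with STAR 2.5.1a, estimated gene counts with RSEM 1.3.0, kept genes with at least 1 CPM in at least 5 samples and scaled libraries by TMM in edgeR. Their normalized CPM is the signal the authors deposited. A second deposited table, with the authors' fold changes and p-values, was used only to pair identifiers with symbols. In the CPM table, 1 further column, named in the way of the WT columns, fitted none of the sample labels and was left out.

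Depth was estimated from the CPM value of 1 read, and 81.0% to 86.5% of values up to 2.5 CPM were whole reads within 0.03 reads. Because RSEM counts are fractional, these depths are approximate. Lower depth makes values of low genes such as Clic1 less precise.

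Values were fitted as log2(CPM + 0.1) with limma 3.58.1 (trend, condition only) in R 4.3.3, with p-values adjusted over 14351 genes by Benjamini-Hochberg (threshold 0.05), in place of the study's limma-voom on counts. The script was tested on simulated data. Two-sided exact permutation tests used scipy 1.17.1. Positions and lengths came from GENCODE M21 (14346 genes placed), shared transcript sequence from blastn 2.17.0 (at least 500 nt at 95% identity) and promoter windows from RefSeq, with a match for all 9 genes. The channel genes and lists were chosen with earlier results of these data known. Named genes were the 9, Clic1, measured partners, Clcn4, Lrrc8e, the listed channel and pump genes with unadjusted p under 0.05 (at most 5 per list), and the 3 genes most correlated with the channel gene of smallest p. Replicate 10 was grouped by its description label. Alternatives were other pseudocounts, filters, scalings, variance models, sample weights, limma-voom on estimated reads, replicate 10 as WT, each replicate left out, an adjusted p of 0.1 and the median transcript length.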

Additional observations from a re-analysis of the deposited data

Results flagged for a closer look

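In 40 groups of 4 or 5 libraries (the channel genes, Clic1 and the named genes of the 3 lists), 4 had a library whose gap to the nearest other exceeded Dixon's 95% limit, where chance gives about 2. WT replicate 11 had 28.5 CPM of Clcn2, against 22.2 to 23.0 CPM in the other WT libraries. KO replicate 10 had 66.5 CPM of Clcn5 and 30.7 CPM of Tmem9, where its group otherwise held 90.1 to 95.6 CPM and 43.4 to 46.2 CPM. WT replicate 9 had 88.8 CPM of Tmem9b, against 68.8 to 70.8 CPM in the other WT libraries.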

How the results depend on the processing

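In limma, none of the 9 channel genes passed the threshold in any alternative run, the lowest adjusted p being 0.351 (Clcn2, with sample weights). Of 181 values of single channel genes under an alternative, 173 kept their direction and 8 changed sign. Clcn5 became 0.0086 with sample weights and 0.10 with replicate 10 as WT, and ranged from -0.12 to 0.0104 with each replicate left out, above 0 only without KO replicate 10. Clcn7 became -0.0050 with sample weights, and ranged from -0.0149 to 0.062 with each replicate left out, below 0 without KO replicate 6 (-0.0108) or WT replicate 3. Lrrc8b and Lrrc8c became 0.10 and 0.077 with replicate 10 as WT. Clcn2 had an unadjusted p under 0.05 with sample weights, with replicate 10 as WT, and without KO replicate 10 or WT replicate 11. The count of genes past the threshold, 41, became 27 among genes of at least 5 CPM, 135 with sample weights, 5 with replicate 10 as WT, and 18 (without WT replicate 1) to 87 (without KO replicate 10) with each replicate left out. With sample weights, 1 gene of the 3 lists passed (Atp6v1b2). Clic1 was at -1.51 (adjusted p = 0.501) with replicate 10 as WT and at -1.94 to -1.62 with each replicate left out (adjusted p = 0.00494 to 0.0893), and the filter at 5 CPM removed it. The cause of these shifts was not tested. No scaling moved the median of all genes by over 0.1 (log2). The summed log2 ratio of the 9 genes was -0.07 with median transcript lengths. On those lengths the sum was 333 CPM per kb in replicate 10 and 376 to 386 in the other KO libraries. It was 376 to 403 in the WT libraries. The 95% intervals are unadjusted and are not limits of detection. A difference whose interval just leaves out 0 would not pass the adjusted threshold over 14351 genes. At this spread, differences smaller than that threshold needs could not be detected.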
